A study of Mus musculus with 9 samples.

Results

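Rab proteins are the small GTPases that give each membrane compartment of a cell its address. The family was read here in 3 sorted mouse populations: T cell zone macrophages (TZM) of the lymph node, CD8a+ dendritic cells (DC) and microglia. Members were taken by name, as probe sets of the array whose single gene symbol in the platform annotation is Rab followed by a number and at most a letter and a digit, with the brightest probe set kept for a gene. This gave 59 Rab genes from 62 probe sets, out of 19938 genes measured. Regulators such as Rab3gap1 or Rab11fip1 are not members.

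A Rab switches between a GDP-bound form in the cytosol and a GTP-bound form on a membrane. Exchange factors (GEF) load GTP, GTPase-activating proteins (GAP) end the active state, and the active form recruits effectors that move, tether or fuse vesicles. A prenyl group at the C-terminus anchors the protein, and the GDP dissociation inhibitors take it off the membrane again. In phagocytes a new phagosome first carries Rab5 and then exchanges it for Rab7 before it fuses with lysosomes. In dendritic cells, Rab-directed traffic brings MHC molecules and internalized antigen into the same compartments.

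All mice carried 1 copy of Cx3cr1 replaced by green fluorescent protein (genotype CX3CR1 gfp+/-), and no group was treated. Sorting gates were GFP-high, MertK+, CD11b+ and CD169- for TZM, GFP-high, CD11b+ and CD45+ for microglia, and CD8a+, CD64-, high CD11c and high MHC class II for DC, which the labels place in the lymph node in the sample fields and in the spleen in the sorting protocol. Each population has 3 arrays, labelled as biological replicates, so 9 arrays in all. Ages, strain background and whether animals were pooled are not given in the sources used here, and p-values measure the spread between these arrays. No Rab gene belongs to a gate.

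Levels are log2 values from robust multi-array averaging (RMA), given per array or as mean ± SD (n = 3), and a difference of 1 is a doubling. A gene was called different at a Benjamini-Hochberg adjusted p under 0.05 over all 19938 genes, from limma, together with a log2 fold change of 1 or more in size. Values from different probe sets share no common scale, so levels are compared between populations and not between genes. RMA sets all arrays to one distribution and measures RNA of whole sorted samples, so fewer cells that express a gene and less RNA per cell cannot be told apart.

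Each population had the markers of its label. All 8 type 1 DC markers had a mean of at least 6 in DC, all 3 T zone macrophage markers in TZM and all 5 measured microglia markers in microglia. Some were shared: P2ry12, Tmem119 and Siglech had means of 9.80, 9.18 and 7.98 in TZM, the DC list genes Itgax and Batf3 were at 8.25 and 7.07 there, and Spic and Timd4 of the T zone macrophage list were at 7.11 and 6.25 in DC. Transcripts typical of other cells were high in some arrays, and their part in the Rab levels was not tested. The salivary transcript Bpifa2, looked up after its values were seen, was at 10.24, 11.998 and 9.29 in TZM and at 3.70 to 4.45 elsewhere, and the neutrophil transcript S100a8 was at 5.89, 9.28 and 7.32 in TZM. Of the 5 neutrophil markers only S100a8 and S100a9 had a mean of at least 6 in TZM, while Ly6g, Elane and Mpo were at 3.16, 4.83 and 4.31 there and at 3.07, 4.81 and 4.32 in DC. The choroid plexus transcript Ttr was at 12.15, 5.48 and 11.83 in microglia. All 4 plasmacytoid DC markers had a mean of at least 6 in DC, beside 3 in TZM and 3 in microglia. Of these, Ly6d was at 8.02 in DC, 5.29 in TZM and 4.97 in microglia, while Bst2 and Tcf4 were higher in TZM than in DC. The B cell gene Ms4a1 was at 7.11 in DC and 4.82 in TZM. Cd79a, Cd79b and Pax5 were higher in TZM, with Cd79b at 9.27. Endothelial Cdh5 was at 7.65 in TZM and 5.38 in DC, and Pecam1 at 6.65 and 6.83. None of the 8 neuron markers reached a mean of 6 in any population. TZM replicate 2, the highest for Bpifa2 and S100a8, correlated with the other TZM arrays at r = 0.986 and 0.982 over all genes, below the 0.993 between replicates 1 and 3. RMA returned exactly the same value in all 3 arrays of a population for 1.81% (TZM), 1.99% (DC) and 2.08% (microglia) of genes, which affects Rab38 and Rab6a in DC and Rab36 in microglia.

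Of the 59 members, 11 were called in at least 1 comparison: Rab7b, Rab30, Rab43, Rab19, Rab38, Rab32, Rab12, Rab20, Rab31, Rab6b and Rab8a. Of all genes, 15.4% were. Without a fold minimum 31 members (52.5%) passed the adjusted p in at least 1 comparison, beside 33.7% of all genes. Of the 28 that did not, 19 had a mean below 6, where an array shows little difference. Among genes with a mean of at least 6, 24 of 33 Rab genes passed (72.7%), beside 62.9% of all such genes. For 36 members (61%) the 95% intervals of all 3 log2 fold changes lay between -1 and 1, as for 74.4% of all genes, and at a mean of at least 6 for 39.4% of Rab genes and 48.9% of all. Between TZM and DC, 8 of 59 members were called, a share of 13.6% against 8.74% of all genes tested. Of these, 4 were higher in TZM (4.71% of all genes) and 4 lower (4.03%). Between TZM and microglia, 4 were called, or 6.78% against 7.65% of all genes, with 3 higher in TZM (4.25% of all genes) and 1 lower (3.4%). Between microglia and DC, 10 were called, or 16.9% against 11.2%, with 3 higher in microglia (5.15% of all genes) and 7 lower (6.01%). On the adjusted p alone 21, 14 and 24 members passed, beside 20.2%, 19.4% and 25.1% of all genes. The arrays of the populations did not overlap for 27, 24 and 36 members, beside 32.3%, 30.5% and 37.8% of all genes. Rab genes more often had a mean of at least 6 than other genes, 33 of 59 against 34.9% of all, and genes at that level were called at 17.6%, 15.8% and 23.6% in the 3 comparisons. The Rab genes at that level were called at 21.2%, 12.1% and 27.3%, so their number was near the background, and what follows concerns which members differed. Their median absolute log2 fold change was 0.45, 0.30 and 0.71, beside 0.35, 0.36 and 0.46 over all genes at that level. Each population enters a pair of comparisons, so these share arrays and are not independent. Over all 59 members it was 0.24, 0.18 and 0.35, beside 0.13, 0.13 and 0.14 over all genes.

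**Figure D1:**
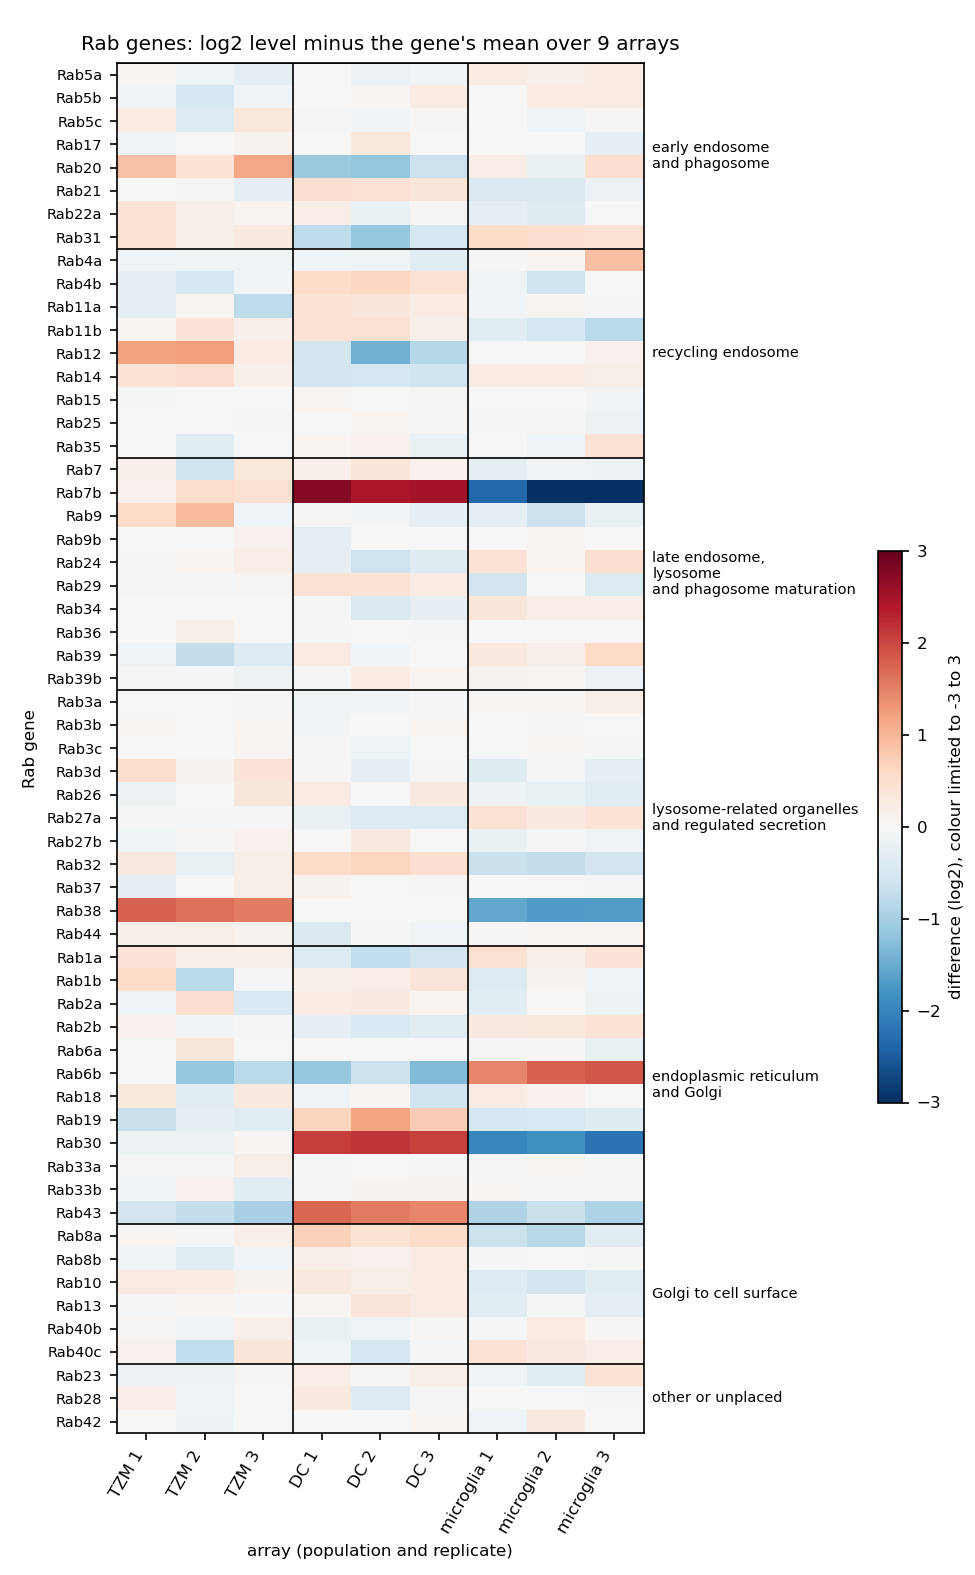
Level of each of the 59 Rab genes in each of the 9 arrays (columns), as the log2 difference from that gene's mean over all arrays, with genes grouped by membrane step and colours limited to -3 to 3. Rab7b, Rab30 and Rab43 are darkest red in the 3 DC arrays, Rab38 is red in TZM and blue in microglia, and most other rows are pale.

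Early endosome and phagosome genes held 2 of 8 members that were called lower in DC than in both macrophage populations, Rab20 and Rab31. Of all genes, 2.31% had that pattern. Rab20 is a hypoxia-inducible Rab that takes part in phagosome maturation in macrophages. Its level was 8.27, 7.79 and 8.53 in the TZM arrays, 6.26, 6.21 and 6.72 in DC, with 7.59, 7.15 and 7.88 in microglia. Every macrophage array lay above every DC array, while TZM and microglia overlapped. Rab20 was higher in TZM than in DC by 1.80 (SE 0.24, adjusted p = 0.000867), or 3.48-fold, and in microglia than in DC by 1.14 (SE 0.24, adjusted p = 0.00841). Without microglia replicate 3 the second value was 0.97, under the fold minimum.

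Rab31, a close relative of Rab22a that directs traffic between the trans-Golgi network and endosomes, was at 8.04, 7.76 and 7.87 in TZM, 6.83, 6.45 and 7.06 in DC, with 8.14, 8.08 and 8.004 in microglia. The DC arrays were the 3 lowest, and the 2 macrophage populations overlapped. The log2 fold change was 1.11 for TZM against DC (SE 0.15, adjusted p = 0.00073) and 1.29 for microglia against DC (SE 0.15, adjusted p = 0.000217). Leaving out DC replicate 2 brought the first to 0.94, under the fold minimum.

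The core Rab5 genes, whose products start fusion of early endosomes and of new phagosomes, were not called. Rab5c was at 9.14 ± 0.39 in TZM, 9.06 ± 0.06 in DC, with 9.05 ± 0.08 in microglia, and neither it nor Rab5b passed the adjusted p in any comparison. Rab5a had log2 fold changes of -0.04 (TZM minus DC), -0.32 (TZM minus microglia, adjusted p = 0.0421) and 0.28 (microglia minus DC). Rab21, an early endosome Rab linked to integrin traffic, was at 9.26 ± 0.05 in DC, 8.75 ± 0.18 in TZM and 8.49 ± 0.15 in microglia. Its log2 fold changes against DC, -0.50 for TZM (adjusted p = 0.0104) and -0.77 for microglia (adjusted p = 0.000793), were below the fold minimum. Rab22a, required in DC for the recycling of MHC class I, was at 7.30 ± 0.17 in TZM, 7.10 ± 0.20 in DC, with 6.87 ± 0.19 in microglia, and no difference passed. Rab17, a Rab of epithelial cells, had means of 4.17 to 4.37.

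**Figure D2:**
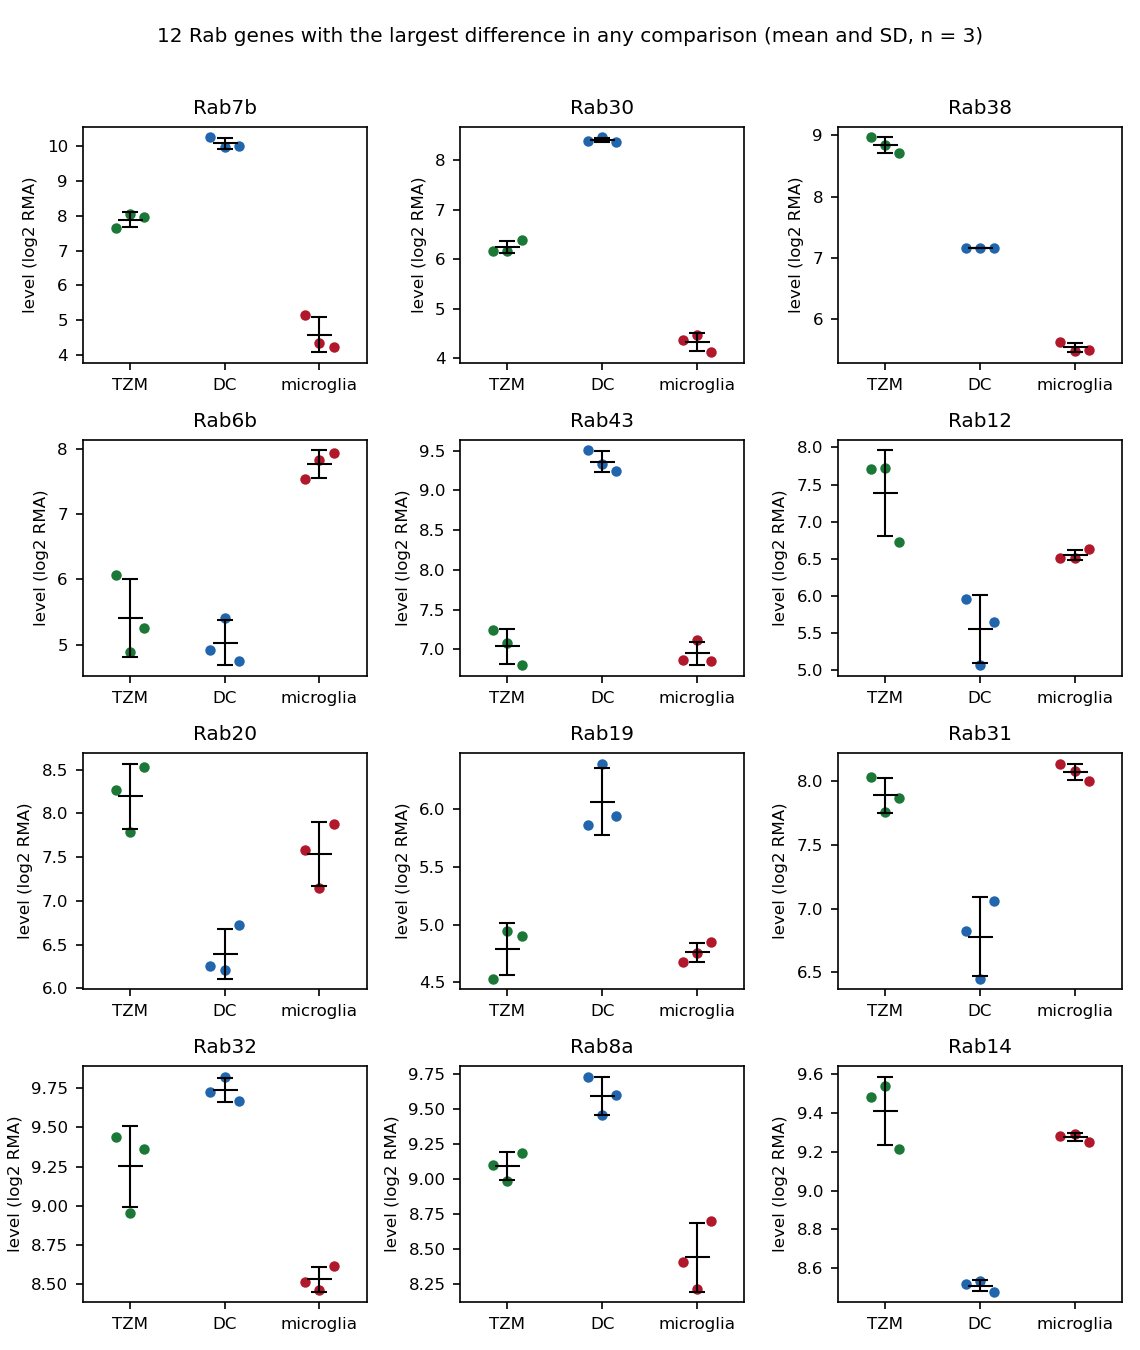
Log2 RMA level of the 12 Rab genes with the largest absolute difference in any comparison, 1 panel for each gene with its own axis. Coloured points are arrays (TZM green, DC blue, microglia red), and black bars are the mean and SD of 3 arrays. Rab7b, Rab30 and Rab38 form 3 separate levels, and Rab43 and Rab19 are high in DC alone.

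Among recycling endosome genes, 1 of 9 was called, Rab12, which was higher in TZM than in DC. Rab12 steers the transferrin receptor from recycling endosomes to degradation. It was at 7.71, 7.73 and 6.72 in TZM, 5.95, 5.06 and 5.65 in DC, with 6.51, 6.51 and 6.63 in microglia. The 3 populations did not overlap, although TZM replicate 3 stood only just above microglia. The TZM level exceeded that of DC by 1.83 (SE 0.30, adjusted p = 0.0025). Against microglia the TZM difference was 0.84 and was not called, while without TZM replicate 3 it was 1.17 and was called. Microglia stood above DC by 0.9955 (adjusted p = 0.0413), just under the fold minimum, and past it without DC replicate 1, at 1.20.

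Rab14, which moves cargo between the trans-Golgi network, endosomes and phagosomes, came closest to the threshold among the others. Its arrays read 9.48, 9.54 and 9.21 in TZM, 8.52, 8.53 and 8.48 in DC, with 9.28, 9.29 and 9.25 in microglia. All DC arrays were below all macrophage arrays, by 0.90 for TZM (SE 0.09, adjusted p = 1e-04) and 0.77 for microglia (SE 0.09, adjusted p = 2e-04), both past the adjusted p and below the fold minimum. Rab4b, of the fast recycling route, had the opposite order, at 8.16 ± 0.09 in DC, 7.32 ± 0.20 in TZM and 7.38 ± 0.33 in microglia, with log2 fold changes of -0.84 and -0.77 against DC (adjusted p = 0.00726 and 0.0086). Rab11a and Rab11b, of the slow recycling route, were not called. Rab11b was lower in microglia, at 7.81 ± 0.24, than in TZM at 8.55 ± 0.17 and DC at 8.70 ± 0.17 (adjusted p = 0.00688 and 0.0018). Rab11a was lower in TZM than in DC (log2 fold change -0.65, adjusted p = 0.0382), and its TZM arrays spread from 8.06 to 8.90. Rab4a was at 5.63 in microglia replicate 3 and at 4.38 to 4.81 in the other 8 arrays. Rab35, and the epithelial and neuronal members Rab25 and Rab15, did not pass in any comparison.

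The late endosome and lysosome group held the largest difference of the family, in Rab7b, while the classical late endosome gene Rab7 did not pass in any comparison. Rab7b acts in transport from endosomes to the trans-Golgi network and limits signalling by Toll-like receptors in myeloid cells. It was at 10.25, 9.97 and 10.01 in DC, 7.64, 8.04 and 7.98 in TZM and 5.16, 4.36 and 4.23 in microglia. The populations fell into 3 separate levels. DC exceeded TZM 4.56-fold (log2 fold change of TZM minus DC -2.19, SE 0.23, adjusted p = 0.000206) and microglia 45.1-fold (log2 fold change of microglia minus DC -5.49, SE 0.23, adjusted p = 5.35e-07). TZM exceeded microglia by 3.30 (adjusted p = 1.99e-05). The microglia values lie near the low end of the scale, and no detection call was used. Rab7, which drives fusion of late endosomes and phagosomes with lysosomes, was at 10.41 ± 0.49 in TZM, 10.67 ± 0.13 in DC, with 10.27 ± 0.11 in microglia. Its lowest array was TZM replicate 2, at 9.85 against 10.61 and 10.77 in the other TZM arrays, and its 3 adjusted p-values ran from 0.25 to 0.746.

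Rab7b was the 1 called member of this group of 10, and 6, Rab7b included, passed the adjusted p alone in at least 1 comparison. Of all genes 33.7% did, and of genes with a mean of at least 6, a level that 6 of the 10 reached, 62.9%. Rab9, which returns mannose 6-phosphate receptors to the Golgi, was at 8.29, 8.66 and 7.63 in TZM and 7.45, 7.07 and 7.49 in microglia, a difference of 0.86 (adjusted p = 0.0376). Rab24, tied to autophagy, was at 7.57 ± 0.19 in DC, 8.06 ± 0.12 in TZM and 8.32 ± 0.24 in microglia, and microglia exceeded DC by 0.75 (adjusted p = 0.00421). Rab39, a regulator of phagosome acidification, was lowest in TZM, at 6.24 ± 0.30, against 6.98 ± 0.23 in microglia (log2 fold change -0.74, adjusted p = 0.0176) and 6.69 ± 0.17 in DC (adjusted p = 0.12). Rab29, which recruits the kinase Lrrk2 to membranes, was at 7.37 ± 0.12 in DC, with 6.68 ± 0.27 in microglia (log2 fold change -0.69, adjusted p = 0.00463). Rab34, Rab36, Rab39b and Rab9b all had population means of 3.75 to 4.98. Of these, Rab34 passed the adjusted p between microglia and DC (0.50, adjusted p = 0.00505). By gene order in RefSeq (GRCm38.p6), Rab29 and Rab7b are near neighbours on chromosome 1, with 3 protein-coding genes between them.

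Genes of lysosome-related organelles and regulated secretion were split. Rab38 and Rab32, paralogues that share work in melanosomes and other lysosome-related organelles, had different patterns. Rab38 was at 8.97, 8.85 and 8.71 in TZM, at 7.17 in each DC array and at 5.63, 5.49 and 5.51 in microglia. Among the members, Rab38 alone was called higher in TZM than in both DC and microglia, as were 2.06% of all genes. In TZM 0 of 59 were called below both (0.592% of all genes). For Rab38, TZM exceeded DC by 1.67 (SE 0.08, adjusted p = 1.17e-06) and microglia by 3.30 (SE 0.08, adjusted p = 4.23e-08), or 9.83-fold. Microglia were below DC (log2 fold change -1.63, adjusted p = 9.54e-07). Rab32, which also defends macrophages against intracellular Salmonella, was at 9.44, 8.95 and 9.36 in TZM, 9.73, 9.83 and 9.67 in DC, with 8.51, 8.46 and 8.61 in microglia. Here DC was highest and microglia lowest, with no overlap, and the difference of microglia from DC was called (-1.21, SE 0.12, adjusted p = 0.000109). Those of TZM from DC (-0.49, adjusted p = 0.0222) and from microglia (0.72, adjusted p = 0.00338) were below the fold minimum.

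Rab27a, which docks lytic granules and multivesicular bodies at the plasma membrane, was at 7.50 in each TZM array, 7.31, 7.14 and 7.13 in DC, with 7.97, 7.80 and 7.94 in microglia. All 3 differences passed the adjusted p, the largest being 0.71 between microglia and DC (SE 0.07, adjusted p = 0.000107), and none reached the fold minimum. Rab3d, a Rab of secretory granules, was at 4.89, 4.49 and 4.77 in TZM, above DC by 0.45 (adjusted p = 0.0397) and microglia by 0.56 (adjusted p = 0.0143). Its lowest TZM array was replicate 2, which was the highest for salivary Bpifa2. Rab44, a large Rab of granulocytes and mast cells, was at 5.22 ± 0.03 in TZM and 4.87 ± 0.20 in DC (adjusted p = 0.0275). The part of salivary RNA in these small differences was not tested. The synaptic and exocrine members Rab3a, Rab3b, Rab3c and Rab26, and Rab27b and Rab37, had means of 3.10 to 4.41 in every population.

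**Figure D3:**
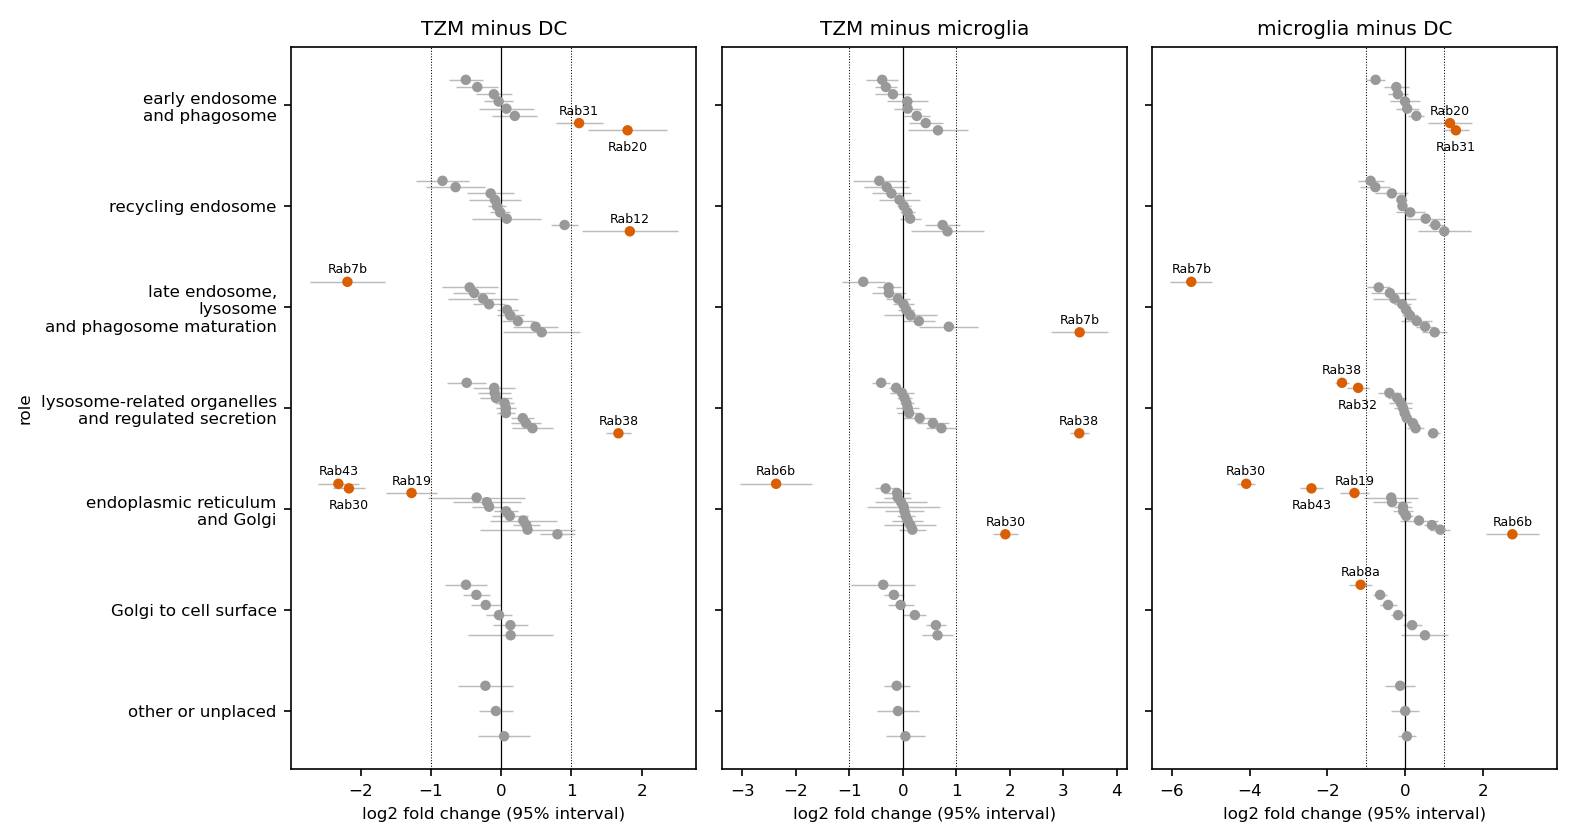
Log2 fold change of each Rab gene (points) with its 95% interval (grey lines) in the 3 comparisons, by membrane step. Orange points, with names, passed the adjusted p and the fold minimum (dotted lines at -1 and 1). The endoplasmic reticulum and Golgi group, the largest with 12 members, has the most called genes, with 3 lower in TZM than in DC (25%). The early endosome and phagosome group has the same share in that comparison (2 of 8, 25%). Of all genes 8.74% were called there, and 17.6% of genes with a mean of at least 6, a level reached by 8 of the 12 and 7 of the 8.

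Of the 12 genes of the endoplasmic reticulum and Golgi, Rab43, Rab30 and Rab19 were called higher in DC than in both macrophage populations. With Rab7b they were the 4 members called in that pattern, found in 2.96% of all genes. Rab43 is a Golgi Rab that CD8a+ DC need for cross-presentation of antigen from dead cells. Its arrays read 9.50, 9.33 and 9.25 in DC, 7.24, 7.08 and 6.81 in TZM and 6.87, 7.12 and 6.85 in microglia. The 2 macrophage populations overlapped, and the 3 DC arrays stood above both. The log2 fold change was -2.32 for TZM minus DC (SE 0.13, adjusted p = 3.6e-06) and -2.41 for microglia minus DC (SE 0.13, adjusted p = 2.02e-06). Between TZM and microglia it was 0.09, with a 95% interval of -0.20 to 0.39. Rab7 and Rab43 lie close together on chromosome 6, with 6 protein-coding genes between them, and Rab7 did not share the pattern.

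Rab30, a Golgi Rab, was at 8.39, 8.46 and 8.37 in DC, 6.17, 6.17 and 6.38 in TZM and 4.37, 4.47 and 4.12 in microglia. Like Rab7b it fell into 3 levels with DC on top. The difference was -2.17 for TZM minus DC (SE 0.10, adjusted p = 1.37e-06), 1.92 for TZM minus microglia (SE 0.10, adjusted p = 3.72e-06) and -4.08 for microglia minus DC (SE 0.10, adjusted p = 2.22e-08). Rab30, Rab38 and Rab7b were called in all 3 comparisons and were lower in microglia than in both lymphoid tissue populations, patterns of 1.5% and 1.85% of all genes. Rab19, a close relative of Rab43, was at 5.87, 6.40 and 5.94 in DC, 4.53, 4.94 and 4.90 in TZM and 4.68, 4.76 and 4.85 in microglia. Its log2 fold change was -1.28 against DC for TZM (SE 0.16, adjusted p = 0.000497) and -1.31 for microglia (SE 0.16, adjusted p = 0.000324).

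With the fold minimum, Rab6b was the only member called higher in microglia than in both others, a pattern of 2.38% of all genes. On the adjusted p alone Rab27a and Rab2b were higher there too. Rab6b is the form of the Golgi Rab6 that is abundant in neurons. Its level was 7.54, 7.83 and 7.94 in microglia, 6.06, 4.89 and 5.25 in TZM and 4.92, 5.41 and 4.75 in DC, so TZM and DC overlapped below all microglia arrays. The log2 fold change of TZM minus microglia was -2.37 (SE 0.29, adjusted p = 0.00058), and microglia exceeded DC by 2.74 (SE 0.29, adjusted p = 0.000154). The 8 neuron markers averaged 4.05 to 4.08 over the microglia arrays, 3.998 to 4.02 over TZM and 3.98 to 3.99 over DC. Of these, Snap25 was higher in microglia, at 4.33, 4.34 and 4.48, than in TZM (3.79, 3.85 and 3.92) and DC (3.81, 3.86 and 3.81). The neuronal members Rab3a, Rab3c, Rab15 and Rab39b had means of 3.40 to 4.31 in microglia. Of these, Rab3a was higher in microglia than in DC by 0.19 (adjusted p = 0.0383). Its microglia arrays lay above all TZM arrays too (TZM minus microglia -0.12, adjusted p = 0.192). Rab3c, Rab15 and Rab39b did not pass in any comparison. The part of neuronal RNA in the Rab6b level was not tested. Microglia replicate 2, the array with the lowest Ttr, was at 7.83 for Rab6b, between the other microglia arrays. The ubiquitous form Rab6a did not pass in any comparison and was at 6.84 in each DC array.

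Rab1a, which controls traffic from the endoplasmic reticulum to the Golgi, was lower in DC, at 10.30 ± 0.16 against 11.10 ± 0.13 in TZM and 11.20 ± 0.15 in microglia. The differences of 0.80 and 0.89 passed the adjusted p (0.000987 and 0.000387) and stayed below the fold minimum. Its paralogue Rab1b spread from 7.06 to 8.40 within TZM, and no comparison passed. Rab2b was lowest in DC, at 5.50 ± 0.11, against 5.86 ± 0.11 in TZM and 6.18 ± 0.08 in microglia, and all 3 differences passed the adjusted p with a largest value of 0.68. Rab2a, Rab18, Rab33a and Rab33b did not pass.

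In the Golgi to cell surface group, 1 of 6 members was called, Rab8a. Rab8a drives polarized transport and membrane protrusions, and it was at 9.72, 9.45 and 9.60 in DC, 9.10, 8.99 and 9.18 in TZM and 8.41, 8.22 and 8.70 in microglia. The 3 populations were separate, in the same order as for Rab32. The called difference was that of microglia from DC (-1.15, SE 0.13, adjusted p = 0.000192), while TZM differed from DC by -0.50 (adjusted p = 0.0242) and from microglia by 0.65 (adjusted p = 0.0073). Rab10, which carries Toll-like receptor 4 to the surface of macrophages, was at 10.06 ± 0.07 in TZM and 10.09 ± 0.07 in DC and lower in microglia, at 9.44 ± 0.14 (TZM minus microglia 0.62, adjusted p = 0.000831). Rab8b was lower in TZM than in DC (log2 fold change -0.35, adjusted p = 0.0175). Rab13 of tight junctions had means of 4.83 to 5.27 and was lower in microglia than in DC (log2 fold change -0.45, adjusted p = 0.00807). Rab40b and Rab40c, which join ubiquitin ligase complexes, did not pass. The unplaced members Rab23, Rab28 and Rab42 did not pass in any comparison.

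The sequence upstream of the start site is shown for 5 called members: the 4 whose windows hold a match to a motif searched, and Rab6b, which has none, for comparison. The windows of the called genes Rab19, Rab31 and Rab8a hold none either. Rab7b, Rab30 and Rab38 had no matched window and were not searched. The sequences are the 250 bases before the annotated start from RefSeq, build GRCm38.p6, on the gene's strand. RefSeq windows were matched for 48 of the 59 genes, 60 windows in all. Capitals mark matches, on either strand, to the PU.1 core GAGGAA, the PU.1 and IRF composite, the AP-1 motif TGANTCA, the E-box CACGTG or the MAF core site TGCTGAC. PU.1 is the lineage factor of myeloid cells, and IRF8, which binds with it, is needed for CD8a+ DC. Rab43, higher in DC (chr6:87809758-87810007, minus strand, the one of 4 annotated starts with a match), Rab20 (chr8:11478641-11478890, minus strand) and Rab12 (chr17:66519671-66519920, minus strand), both lower in DC than in TZM, Rab32, higher in DC than in microglia (chr10:10558208-10558457, minus strand), and Rab6b, higher in microglia (chr9:103111824-103112073, plus strand), read as follows.
Rab43: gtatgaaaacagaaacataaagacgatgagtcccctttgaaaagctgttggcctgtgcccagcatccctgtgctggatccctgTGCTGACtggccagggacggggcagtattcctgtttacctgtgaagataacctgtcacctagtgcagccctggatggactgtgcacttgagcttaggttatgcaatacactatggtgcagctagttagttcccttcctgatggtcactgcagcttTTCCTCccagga
Rab20: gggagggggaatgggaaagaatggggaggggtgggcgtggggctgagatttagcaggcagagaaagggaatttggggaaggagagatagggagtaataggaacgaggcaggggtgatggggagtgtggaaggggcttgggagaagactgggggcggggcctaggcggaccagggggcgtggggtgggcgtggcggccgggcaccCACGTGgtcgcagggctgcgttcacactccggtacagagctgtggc
Rab12: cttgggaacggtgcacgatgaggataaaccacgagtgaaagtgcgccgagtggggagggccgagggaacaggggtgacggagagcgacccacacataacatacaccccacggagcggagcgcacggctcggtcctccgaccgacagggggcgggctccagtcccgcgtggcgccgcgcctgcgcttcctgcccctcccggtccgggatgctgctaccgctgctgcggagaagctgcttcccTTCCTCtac
Rab32: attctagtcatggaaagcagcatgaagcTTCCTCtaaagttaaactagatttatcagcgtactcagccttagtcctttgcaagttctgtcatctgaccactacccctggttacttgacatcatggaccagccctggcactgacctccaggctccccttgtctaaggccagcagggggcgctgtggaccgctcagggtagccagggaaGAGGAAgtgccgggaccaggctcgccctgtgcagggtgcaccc
Rab6b: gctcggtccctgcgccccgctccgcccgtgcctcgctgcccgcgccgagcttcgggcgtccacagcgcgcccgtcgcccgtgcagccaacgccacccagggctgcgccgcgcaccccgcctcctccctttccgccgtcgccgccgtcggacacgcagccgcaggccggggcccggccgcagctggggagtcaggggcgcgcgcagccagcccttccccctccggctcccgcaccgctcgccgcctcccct

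In these windows Rab43 has a PU.1 core 12 bases and a MAF core site 167 bases before the start, Rab20 an E-box 46 bases before it, Rab12 a PU.1 core 9 bases before it, and Rab32 a PU.1 core at 222 and at 43 bases. The window of Rab6b has none and is 80.8% G and C. Over all Rab windows the PU.1 core was found in 8 of 60 (13.3%), against 23.4% of 32536 windows of all genes, the E-box in 5 (8.33% against 6.04%), AP-1 in 2 (3.33% against 6.73%), and the composite and the MAF core site in 1 each (1.67% against 2.31% and 3.79%). The PU.1 core and the composite can share bases. Rab windows had a median of 60.2% G and C and 15 CpG dinucleotides, against 52.4% and 6 over all windows. The matches describe letters and do not show binding.

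The regulators of Rab proteins were read in 4 lists, whose called shares are set beside those of all genes and of genes with a mean of at least 6. The exchange factor, GTPase-activating and effector lists also hold genes below that level. For these the second share is not a like-for-like background. Of 36 exchange factors, 6 were higher and 2 lower in TZM than in DC (22.2% called, against 8.74% and 17.6%). Against microglia 2 were higher and 8 lower in TZM (27.8%, against 7.65% and 15.8%), and between microglia and DC 8 were higher and 2 lower in microglia (27.8%, against 11.2% and 23.6%). Their median log2 fold changes were -0.01, -0.15 and 0.23 in that order, beside 0.02, 0.01 and 0.01 over all genes. Rin2 and Rin3 activate Rab5. Rin2 was at 8.91 ± 0.18 in microglia, 6.73 ± 0.50 in TZM and 4.77 ± 0.19 in DC (microglia minus DC 4.14, adjusted p = 2.73e-06). Rin3 was lowest in TZM, at 6.30 ± 0.13, against 8.06 ± 0.05 in DC, with 8.42 ± 0.12 in microglia (log2 fold changes -1.76 and -2.11, adjusted p = 2.1e-06 and 9.14e-07). Rab3il1, an activator of Rab8, was at 9.29 ± 0.15 in microglia, 8.09 ± 0.30 in TZM and 5.77 ± 0.20 in DC (microglia minus DC 3.52, adjusted p = 9.36e-07), whereas Rab8a was lowest in microglia. Dennd4a was lower in TZM than in DC (-1.67) and microglia (-2.10), Sbf2 was higher in microglia than in DC by 1.59, and Dennd1b, an activator of Rab35, was lower there (microglia minus DC -1.77).

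Dennd3, the activator of Rab12, was the exchange factor with the largest difference between TZM and the other populations. It was at 9.13, 8.81 and 8.93 in TZM, 5.62, 5.29 and 5.62 in DC, with 4.87, 4.78 and 4.87 in microglia. TZM exceeded DC by 3.44 (SE 0.11, adjusted p = 1.84e-07) and microglia by 4.11 (SE 0.11, adjusted p = 7.94e-08). Rab12 was highest in TZM too, but lowest in DC, where Dennd3 stood above microglia. The next 3 pairs were chosen after their values were seen. Dennd6a, an activator of Rab14, was at 7.25 ± 0.49 in TZM, 6.21 ± 0.20 in DC, with 7.25 ± 0.15 in microglia, higher in TZM than in DC by 1.05 (adjusted p = 0.0106) and in microglia by 1.04 (adjusted p = 0.00877), as the DC arrays were the lowest for Rab14. Mlph, melanophilin, which links Rab27a to a myosin, was at 6.43, 6.49 and 6.78 in microglia, where Rab27a was highest, and at 5.02 to 5.24 in the other 6 arrays (TZM minus microglia -1.37, adjusted p = 1.64e-05). The myosin it links to, Myo5a, was lowest in microglia, and none of the other Rab27a effectors measured (Sytl1 to Sytl5, Myrip, Exph5 and Unc13d) was called. Hps4, a subunit of the activator of Rab32 and Rab38, was at 7.99, 8.56 and 7.86 in microglia, where both Rab genes were lowest, and at 6.31 ± 0.32 in TZM and 6.77 ± 0.04 in DC (TZM minus microglia -1.83, adjusted p = 0.000315). The partner subunit Hps1 did not follow it, at 5.66, 5.56 and 5.92 in microglia, 5.75, 5.72 and 5.82 in TZM and 5.75, 5.50 and 5.94 in DC.

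**Figure D4:**
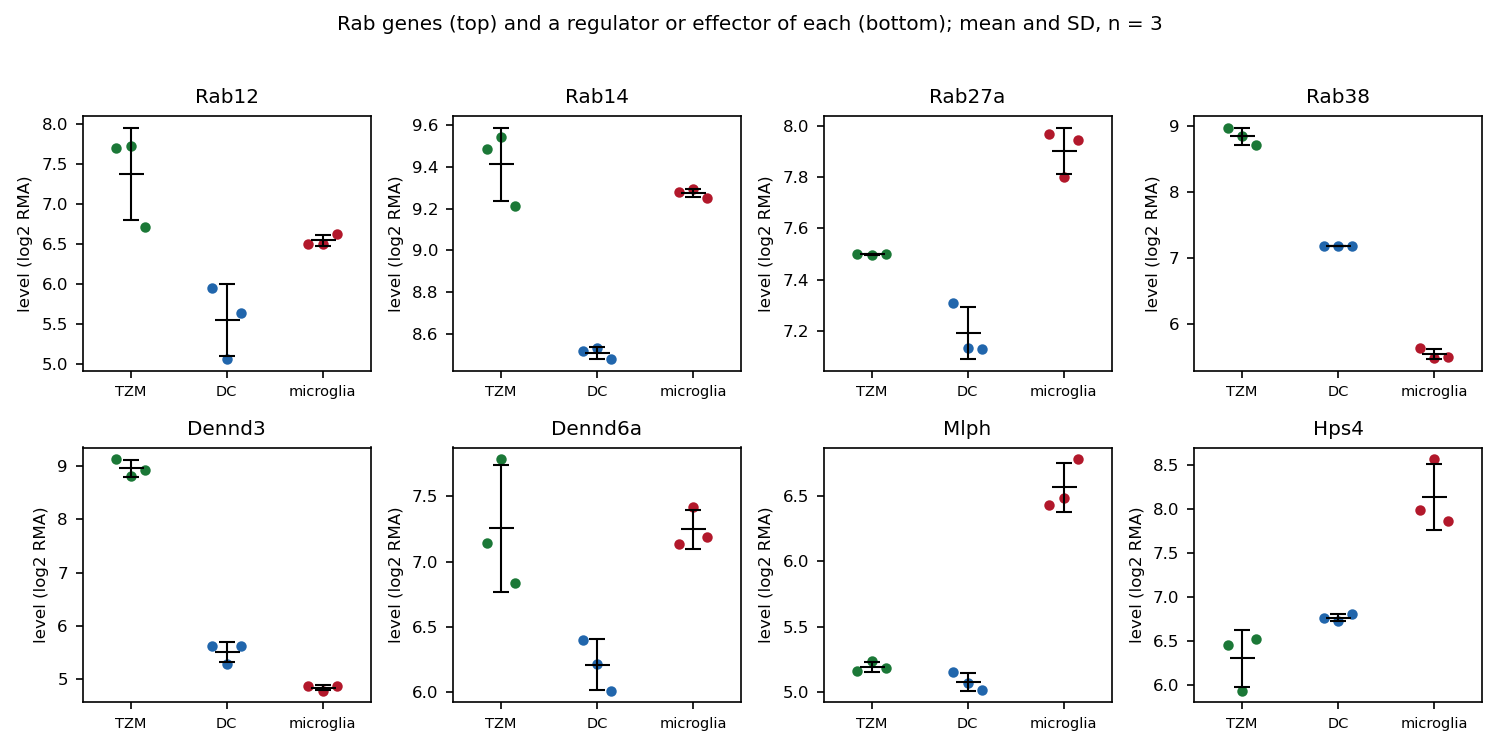
Log2 RMA level of 4 Rab genes (top row) and of a regulator or effector of each (bottom row), with arrays as coloured points and the mean and SD of 3 arrays in black; each panel has its own axis. Rab12 and Dennd3 are both highest in TZM, Rab14 and Dennd6a both lowest in DC, Rab27a and Mlph both highest in microglia (where Myo5a, not drawn, was lowest), and Rab38 and Hps4 run in opposite order between TZM and microglia.

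Of 38 GTPase-activating proteins, 4 were higher and 3 lower in TZM than in DC (18.4% called, against 8.74% and 17.6%). Between TZM and microglia 2 were higher and 0 lower in TZM (5.26%, against 7.65% and 15.8%), with 12 of the 38 past the adjusted p alone, where 19.4% of all genes were. Between microglia and DC 3 were higher and 5 lower in microglia (21.1%, against 11.2% and 23.6%). These shares were near or below those of genes with a mean of at least 6, but the list also holds members below that level. Tbc1d8 was at 9.68 ± 0.07 in DC, 7.55 ± 0.10 in TZM and 6.64 ± 0.45 in microglia (TZM minus DC -2.13, microglia minus DC -3.05, adjusted p = 8.17e-05 and 6.48e-06). Rabgap1l had the same order, at 6.72 ± 0.22, 5.32 ± 0.09 and 4.62 ± 0.13. Tbc1d9 was lower in TZM than in DC (-1.60), and Tbc1d1, which acts on Rab10 in glucose transport, was lower in microglia than in DC (-1.45). Tbc1d2b was highest in TZM, at 8.67, 7.47 and 8.11, against 5.61 ± 0.32 in DC (log2 fold change 2.47, adjusted p = 0.000291) and 6.92 ± 0.06 in microglia (1.16, adjusted p = 0.0192). Tbc1d20, which inactivates Rab1, was higher in TZM than in microglia by 1.14, and Evi5 was higher in microglia than in DC by 1.67.

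Of 44 effectors, 6 were higher and 3 lower in TZM than in DC (20.5%, against 8.74% and 17.6%). There were 4 higher and 1 lower in TZM than in microglia (11.4%, against 7.65% and 15.8%), and 5 higher and 6 lower in microglia than in DC (25%, against 11.2% and 23.6%). The list holds members with a mean below 6, such as Sytl2 and Rilp, and no share was taken over the effectors above that level alone. The kinase Lrrk2, which is recruited by Rab29 and phosphorylates Rab8a and Rab10, was at 8.51, 8.21 and 8.29 in DC, 3.96, 4.18 and 3.998 in TZM and 3.45, 3.50 and 3.69 in microglia. The difference was -4.29 for TZM minus DC (SE 0.10, adjusted p = 4.55e-08) and -4.79 for microglia minus DC (SE 0.10, adjusted p = 1.3e-08). Rab11fip1, an adaptor of Rab11 on recycling endosomes, was at 9.51, 9.18 and 9.41 in DC, 6.11, 6.48 and 6.28 in TZM and 4.63, 4.86 and 4.87 in microglia, while Rab11a and Rab11b themselves were not called. Myo5a, a myosin motor that Rab27a and other Rabs recruit, was at 9.68 ± 0.08 in TZM, 7.32 ± 0.03 in DC, with 5.98 ± 0.49 in microglia (TZM minus microglia 3.70, adjusted p = 4.78e-06).

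Among effectors of Rab7, Osbpl1a and Plekhm1 were higher in TZM than in DC, while Rab7 was not called. Fyco1 went the other way without overlap, at 6.13, 6.43 and 5.45 in TZM and 6.97, 6.64 and 6.82 in DC. Rilp and Rubcn overlapped between TZM and DC. Osbpl1a, the sterol sensor ORP1L on late endosomes, was at 7.05 ± 0.03 in TZM, 5.13 ± 0.04 in DC, with 6.37 ± 0.11 in microglia (TZM minus DC 1.93, adjusted p = 2.75e-07). Plekhm1, an adaptor for fusion with lysosomes, was at 8.85, 7.80 and 8.73 in TZM, 7.29 ± 0.07 in DC, with 6.85 ± 0.15 in microglia (TZM minus DC 1.18, adjusted p = 0.00903, and TZM minus microglia 1.61, adjusted p = 0.0018). Elsewhere in the effector list, Rilpl2 was low in microglia, at 6.49 ± 0.23, and similar in its means in TZM and DC, at 8.79 ± 0.22 and 8.70 ± 0.18. Rilpl1 was higher in microglia than in DC by 1.98. The 7 measured genes for prenylation and for recovery of Rab proteins from membranes, among them Gdi2 and Chm, had 0 calls in any comparison by limma. Of all genes, 8.74%, 7.65% and 11.2% were called. On the adjusted p alone 2, 1 and 1 of the 7 passed, beside 20.2%, 19.4% and 25.1% of all genes. A list of 7 is too small to be told apart from these shares.

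**Figure D5:**
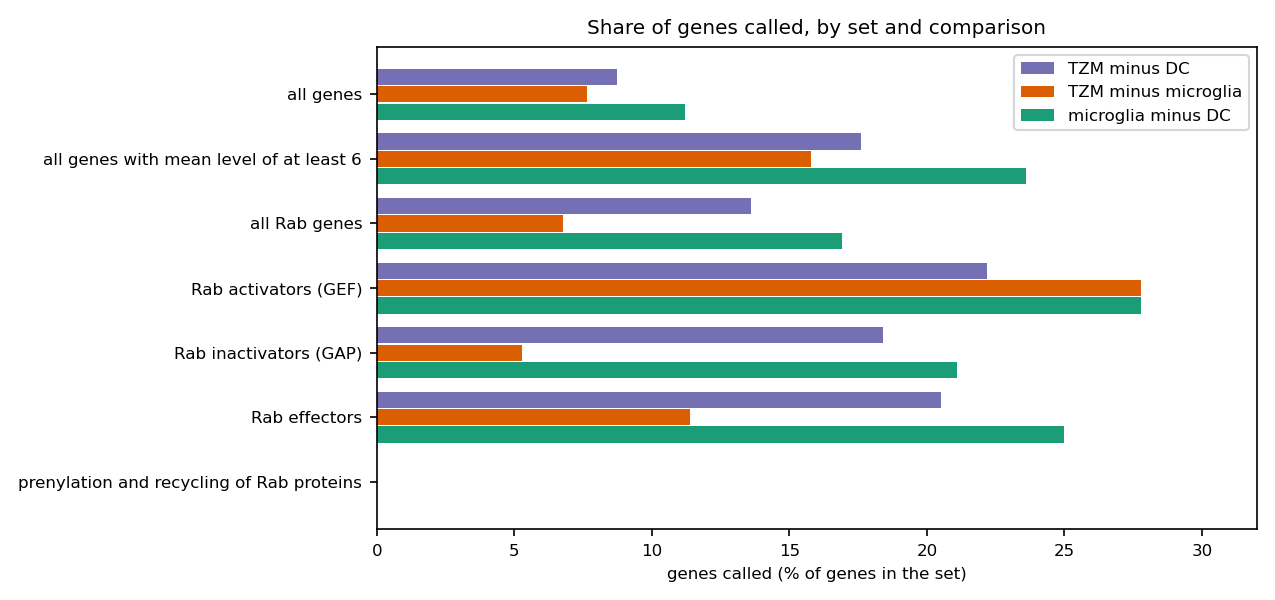
Percent of genes called in each comparison (bars from 0), for all genes, for genes with a mean level of at least 6, for the 59 Rab genes and for 4 lists of Rab regulators. The bars of the Rab genes end at 13.6%, 6.78% and 16.9%, and the exchange factors reach 22.2%, 27.8% and 27.8%.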

How the data were processed

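The authors deposited log2 levels from RMA (background correction, normalization between arrays, 1 summary per probe set), computed in Affymetrix Expression Console 1.3.1 per the submitters' processing notes. The table holds 35556 probe sets for 9 arrays. Probe sets with 1 gene symbol in the platform annotation (21789) were used, with the highest mean over all arrays kept for a gene. A linear model with population as its single factor was fitted to all 19938 genes and 9 arrays with limma 3.58.1 under R 4.3.3, using moderated variances, and was tested on simulated data. The members, the role and pathway lists and the tests were chosen with earlier results of these data known. Named were every called Rab gene, with each array's level for the 12 largest differences, and up to 4 called genes for each pathway list and comparison. Near-identical paralogues may share probes. Alternatives were no fold minimum, a level filter, other scalings, other probe set rules, a fit of only the compared groups, another variance model, array weights, replicate block and each array left out. All 59 members matched RefSeq by Entrez identifier.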

Additional observations from a re-analysis of the deposited data

How the results depend on the processing

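Without a fold minimum, 21 Rab genes passed between TZM and DC (11 higher, 10 lower), 14 between TZM and microglia (9 higher, 5 lower) and 24 between microglia and DC (11 higher, 13 lower). With each array left out the counts ran from 7 to 9, from 4 to 6 and from 9 to 11. Of the 22 called differences of single Rab genes, 20 stayed called under each of the 19 alternatives that tested them, and 2 were lost under 1 each: Rab31 for TZM against DC without DC replicate 2 (0.94) and Rab20 for microglia against DC without microglia replicate 3 (0.97). No direction turned. The replicate block gave 8, 4 and 10 calls, as without it. Correlations of deviations were -0.15 to 0.13 for same-numbered arrays, within the range of the other pairs (-0.19 to 0.15). With 3 arrays a group this check cannot decide whether the numbers pair the arrays. Rab19 was not tested under the level filter. RMA values carry no detection call, so differences that involve levels near the low end tend to be understated, and 3 arrays a group limit the precision.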
